A study of Mus musculus with 22 samples.

Results

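The 10 genes described here encode core transcription factors of the heart and 2 of their cofactors: Gata4, Gata5, Gata6, Zfpm2, Nkx2-5, Mef2a, Mef2c, Mef2d, Srf and Myocd. They were chosen by name out of 54356 annotated genes, though with earlier results of these data known. The aim was to see how far the core cardiac program was kept after loss of Prdm16, a zinc finger transcription factor. Bulk RNA sequencing was done on C57BL/6 mouse hearts at E13.5, in mid-gestation. Conditional knockouts of Prdm16, written cKO, were compared with their littermate controls, which the labels give as WT and as Mock. There were 3 whole hearts, 4 left ventricles and 4 right ventricles of each genotype, 22 libraries in all. The labels do not name the Cre line that removed Prdm16, so the cell types in which the gene was deleted are not given in the sources used here, and they give no allele for either group. They do not say that each library came from a separate animal, so p-values measure the spread between these libraries, which may be partly technical.

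GATA4, GATA5 and GATA6 are zinc finger proteins that bind GATA sequences, and Zfpm2 (FOG2) encodes a protein that binds GATA factors and modulates them without contacting DNA at their sites. NKX2-5 is a homeodomain protein, MEF2A, MEF2C and MEF2D are MADS box proteins, and SRF is the MADS box protein that binds CArG boxes and for which myocardin (Myocd) is the heart and smooth muscle coactivator. These proteins bind together at many enhancers of contractile genes, and hearts form abnormally when Gata4, Nkx2-5, Mef2c or Srf is lost.

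Whole heart libraries held 38590751 to 62004017 assigned reads and ventricle libraries 14508722 to 22830716. Prdm16 itself fell by 1.04, 1.19 and 0.75 on the log2 scale in whole hearts, left and right ventricles (adjusted p = 0.00192, 6.46e-09 and 2.96e-06, edgeR's quasi-likelihood test). All 10 cardiomyocyte markers searched were detected in all libraries. All 3 whole heart controls had fewer assigned reads (38590751 to 54152563) than all 3 whole heart cKO libraries (55033350 to 62004017). They also had fewer genes at 1 TPM or more (14720 to 15029 against 15200 to 15306), with control 1 lowest in both. The part of this difference in the whole heart results was not tested. Right ventricle control 2 had 9 cushion and fibroblast mesenchyme markers at 804.2 TPM in sum against 368.2 to 419.3 TPM in the other 3 controls.

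Promoter sequence is shown for a pair of genes: Gata5, which was the only member called in all 3 tissues, and Srf, which was lower in left than in right ventricles of both genotypes. Each is the window of 250 bases before the RefSeq start on the minus strand of GRCm38.p6, written 5′ to 3′, and capitals mark CArG boxes. The Gata5 window is chr2:180334680-180334929 and the Srf window is chr17:46556163-46556412.
Gata5: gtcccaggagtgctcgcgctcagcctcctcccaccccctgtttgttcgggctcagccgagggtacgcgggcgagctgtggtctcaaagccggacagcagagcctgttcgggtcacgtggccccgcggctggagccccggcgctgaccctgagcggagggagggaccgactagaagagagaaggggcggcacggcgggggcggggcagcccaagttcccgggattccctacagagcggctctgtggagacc
Srf: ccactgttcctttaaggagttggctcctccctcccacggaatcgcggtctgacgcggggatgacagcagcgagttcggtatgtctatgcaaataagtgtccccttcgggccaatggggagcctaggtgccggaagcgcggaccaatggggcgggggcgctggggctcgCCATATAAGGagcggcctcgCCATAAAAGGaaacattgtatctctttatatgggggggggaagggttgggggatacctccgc
The Srf window held 2 CArG boxes, at 82 to 73 and 62 to 53 bases before the start. A CArG box on either strand was found in 1.47% of 32851 promoter windows of the same length. The Gata5 window, with a GC content of 70.0%, held no CArG box, no MEF2 site and no AGATAA on either strand. A MEF2 site was found in 1.69% and AGATAA in 9.99% of the promoters, and a MEF2 site can share bases with a CArG box. RefSeq promoters were at hand for 6 of the 10 members, as 8 windows, and none of the other windows held any of these motifs.

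**Figure D1:**
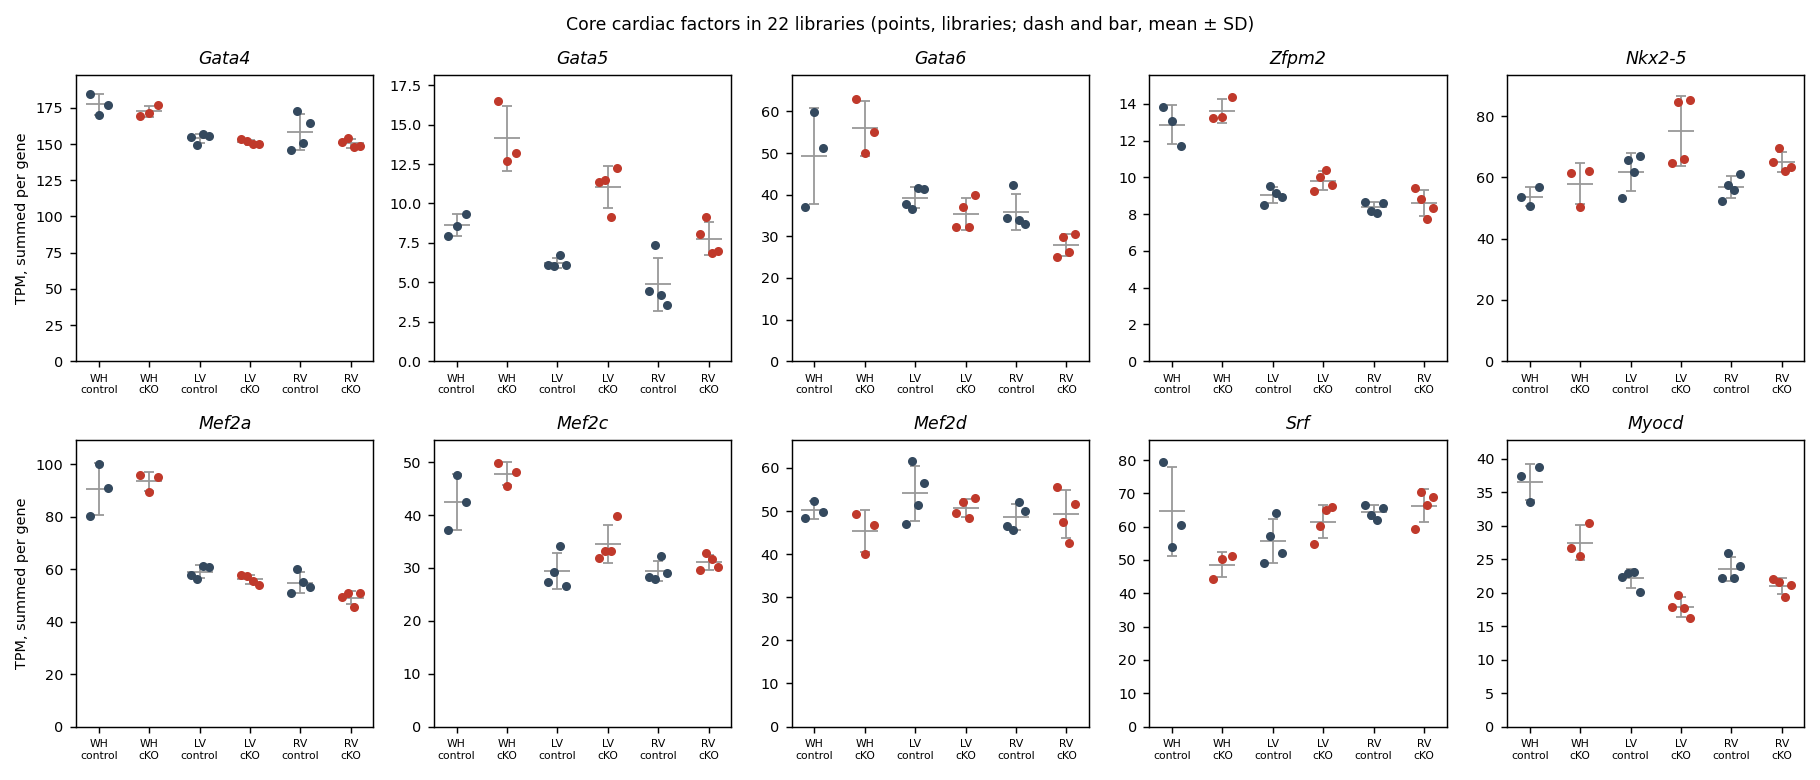
Level of each of the 10 genes in TPM, summed over its transcripts, in every library (points), with the mean and SD of each group, for whole heart (WH), left ventricle (LV) and right ventricle (RV) in control (dark) and cKO (red). Gata5 is higher and Myocd lower in the left ventricle cKO libraries than in the controls, while the Gata4 groups lie close together.

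In the level scaled to transcript length (TPM), all 10 genes were expressed in all 22 libraries. Gata4 had the highest level in all 6 groups, from 150.6 ± 2.96 TPM (SD, n = 4) in the right ventricle cKO to 177.4 ± 7.37 TPM (SD, n = 3) in whole heart controls, and its range overlapped that of no other member. In left ventricle controls Nkx2-5 (61.9 ± 6.16 TPM), Mef2a (59.1 ± 2.37 TPM), Srf (55.7 ± 6.47 TPM) and Mef2d (54.1 ± 6.35 TPM) followed (SD, n = 4), and neighbours among these 4 overlapped. Gata6 (39.3 ± 2.52 TPM), Mef2c (29.4 ± 3.39 TPM), Myocd (22.1 ± 1.41 TPM), Zfpm2 (9.03 ± 0.45 TPM) and Gata5 (6.25 ± 0.32 TPM) came next in that order, each range apart from the next. In all 3 control tissues Gata5 was the lowest member and Zfpm2 the next. In the cKO the ranges of Gata5 and Zfpm2 overlapped in all 3 tissues, and Gata5 had the higher mean in the whole heart (14.1 against 13.6 TPM) and the left ventricle (11.1 against 9.82 TPM). A sum over transcripts includes short partial models: in the left ventricle controls Gata4-204 and Gata4-205 made 18.5% each of the TPM of Gata4, and Srf-202 and Srf-203 made 6.67% and 21.9% of that of Srf. Levels of those genes relative to other genes are therefore less certain. The share of a short model could also differ between groups. Srf-202 made 7.95% of Srf TPM in the whole heart cKO and 20.8% in its controls (9.30% to 39.5%). Group differences of Srf in TPM are therefore less certain too.

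The question for each tissue was which members differed between cKO and control. One member, Gata5, was called in the whole heart at an adjusted p under 0.05, and it was higher in the cKO, where 4.03% of 19160 genes tested were called (1.96% higher and 2.07% lower). In the left ventricle 3 of 10 members were called, Gata5 higher and Gata6 and Myocd lower, beside 25.6% of 16448 genes (12.3% higher, 13.4% lower). In the right ventricle 3 of 10 were called, Gata5 higher and Gata6 and Mef2a lower, beside 10.3% of genes (6.12% higher, 4.19% lower). The share of members called is near that of all genes in the left ventricle. The median log2 fold change of the members was -0.12 in the whole heart, -0.01 in the left and 0.04 in the right ventricle, where that of all genes tested was 0.01, -0.0008 and -0.0054. The largest absolute change among members was that of Gata5 in each tissue. The 95% interval of the log2 fold change lay within 0.5 either way for 9 of 10 members in each ventricle, all but Gata5, and for 6 of 10 in the whole heart. As these are bulk samples, fewer cells of a type and less RNA per cell cannot be told apart.

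**Figure D2:**
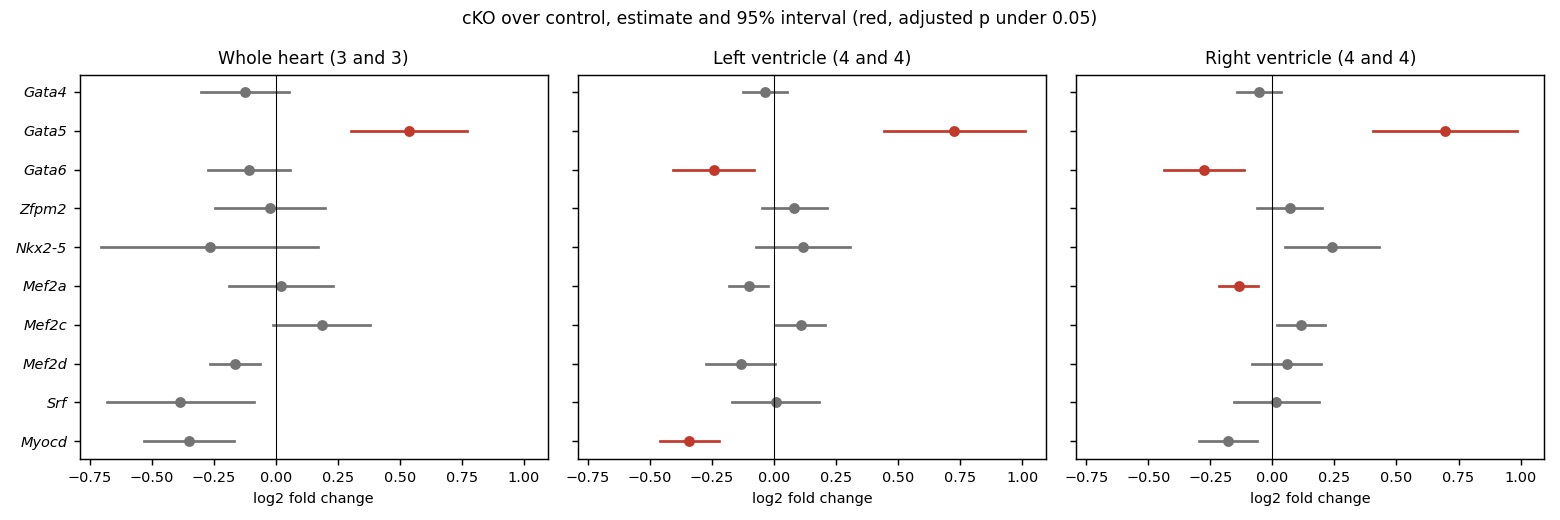
Log2 fold change of cKO over control for each gene in the whole heart, left ventricle and right ventricle, with its 95% interval from edgeR's quasi-likelihood fit, red where the adjusted p is under 0.05. Gata5 lies at 0.54, 0.73 and 0.70, and no other member is red in all 3 panels.

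Gata5 (ENSMUSG00000015627.5, chr2:180325133-180334699, minus strand, GRCm38) has 1 annotated transcript and is known in the embryonic heart chiefly from the endocardium. In the left ventricle it had 34.4, 32.9, 29.8 and 35.1 CPM (counts relative to library size, after scaling between libraries) in the cKO and 19.4, 19.0, 21.6 and 19.8 CPM in controls. All 4 cKO libraries were above all 4 controls, and the log2 fold change was 0.73 (SE 0.13, adjusted p = 0.000694). Right ventricle libraries held 27.5, 31.2, 25.3 and 24.4 CPM in the cKO and 15.5, 23.7, 14.8 and 12.8 CPM in controls. The groups did not overlap in CPM, but control 2 lay close to the cKO libraries, and in TPM it (7.34) lay above cKO 3 and cKO 4 (6.88 and 6.97). The log2 fold change was 0.70 (SE 0.14, adjusted p = 0.00305), and 0.92 without right ventricle control 2 (adjusted p = 4.08e-06). Whole hearts held 47.5, 39.9 and 39.2 CPM in the cKO and 30.8, 25.7 and 30.9 CPM in controls, which do not overlap, with a log2 fold change of 0.54 (SE 0.10, adjusted p = 0.0292).

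The whole heart call of Gata5 depended on single libraries. Its adjusted p was 0.0511 to 0.111 without cKO 1, cKO 2, cKO 3, control 2 or control 3, each left out alone, and 0.0176 without control 1. With deposited TPM in place of counts it was 0.65 (adjusted p = 0.130, limma on log2 of TPM plus 1). In both ventricles Gata5 was called under every alternative run, 28 for each.

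Markers of other cell types differed beside Gata5. Over all genes tested 12.3% were called higher in the left ventricle, 6.12% in the right ventricle and 1.96% in the whole heart. Of 10 endothelial and endocardial markers, 8 were called higher in the left ventricle, 3 in the right ventricle and 2 in the whole heart, none lower, with none at 0. Their summed level was 824.9 to 916.0 TPM in the left ventricle cKO and 666.7 to 699.6 TPM in its controls, 703.2 to 727.6 and 620.9 to 678.5 TPM in the right ventricle, and 686.0 to 774.5 and 645.2 to 657.9 TPM in the whole heart. Of 9 epicardial markers, 5 were called higher in the left ventricle (215.9 to 243.5 against 163.7 to 182.4 TPM in sum), 1 in the right and 0 in the whole heart. Of 9 cushion and fibroblast mesenchyme markers, 2 were called higher in the left ventricle (585.5 to 725.6 against 426.4 to 647.8 TPM in sum). In the whole heart 0 were called, though their sums did not overlap (1320 to 1460 against 1081 to 1159 TPM). In the right ventricle 0 were called, their median log2 fold change was -0.455, and their sums overlapped (373.5 to 499.6 against 368.2 to 804.2 TPM). Right ventricle control 2, where Gata5 was highest among its controls, is the library with the high mesenchyme sum given above. The part of these cell types in the Gata5 result was not tested.

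Gata4 (ENSMUSG00000021944.15, chr14:63198922-63271692, minus strand), the GATA factor required early in heart formation, was called in none of the 3 tissues. In the left ventricle its level was 153.6, 151.9, 149.8 and 150.1 TPM in the cKO and 154.7, 149.2, 156.7 and 155.3 TPM in controls, which overlap. Its log2 fold change was -0.04 there (95% interval -0.12 to 0.05), -0.05 in the right ventricle (-0.14 to 0.03) and -0.13 in the whole heart (-0.30 to 0.05). Without whole heart control 1 the whole heart value was -0.04 (adjusted p = 0.740). Both ventricle intervals are narrow beside the change of Gata5.

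Gata6 (ENSMUSG00000005836.10, chr18:11052064-11085635, plus strand), a close relative that acts together with Gata4 in the myocardium, was lower in both ventricles. Left ventricle levels were 83.8, 87.0, 87.6 and 91.9 CPM in the cKO and 100.9, 92.7, 111.6 and 109.7 CPM in controls, with all cKO libraries below all controls. The log2 fold change was -0.24 (SE 0.08, adjusted p = 0.0263). Right ventricle levels were 72.9, 88.3, 84.9 and 95.1 CPM in the cKO and 93.8, 113.4, 99.9 and 105.8 CPM in controls, where only cKO 4 reached the range of the controls. The log2 fold change was -0.28 (SE 0.08, adjusted p = 0.0287), and in the whole heart -0.11 (adjusted p = 0.492). The left ventricle call was lost without left ventricle cKO 1, 2 or 3 or control 3 or 4 (adjusted p 0.0530 to 0.0873), and the right ventricle call without right ventricle cKO 1 or 3 or control 2 or 4 (0.0603 to 0.0898, with -0.23 without control 2). The left ventricle call was also lost with library totals (adjusted p = 0.0556) and with counts scaled from TPM (adjusted p = 0.0743), and the right ventricle call with the 8 right ventricle libraries fitted alone (adjusted p = 0.0845). On log2 of TPM plus 1 the left ventricle value was -0.15 (adjusted p = 0.294, limma) and the whole heart value 0.20 (adjusted p = 0.660), while the right ventricle value was -0.35 (adjusted p = 0.0427).

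Zfpm2 (ENSMUSG00000022306.9, chr15:40655035-41104592, plus strand), the GATA cofactor, was not called in any tissue. Log2 fold changes of Zfpm2 were -0.02 in the whole heart (95% interval -0.25 to 0.20), 0.08 in the left ventricle (-0.05 to 0.21) and 0.07 in the right ventricle (-0.06 to 0.20), and its groups overlapped in all 3. Without whole heart control 1 the whole heart value was 0.09 (adjusted p = 0.477), and without right ventricle control 2 the right ventricle value was 0.03 (adjusted p = 0.830). Across the 16 ventricle libraries it stayed between 7.76 and 10.4 TPM, and in the whole hearts between 11.7 and 14.4 TPM.

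Nkx2-5 (ENSMUSG00000015579.5, chr17:26838664-26845009, minus strand), among the earliest markers of the cardiac lineage, did not pass the test in any tissue. Right ventricle levels of Nkx2-5 were 106.3, 115.4, 114.4 and 111.9 CPM in the cKO and 82.5, 87.2, 93.8 and 116.1 CPM in controls, with control 4 above all cKO libraries. In TPM the cKO libraries (62.2 to 69.7) were all above the controls (52.4 to 61.1). Its log2 fold change was 0.24 (SE 0.09, adjusted p = 0.109), and without control 4 it was 0.35 (adjusted p = 0.00606). It was 0.12 in the left ventricle (95% interval -0.07 to 0.31, adjusted p = 0.389). In the whole heart, where controls ran from 60.5 to 111.7 CPM and cKO libraries from 70.4 to 76.2 CPM, it was -0.27 (95% interval -0.70 to 0.17, adjusted p = 0.530). This was -0.47 without whole heart control 2 (adjusted p = 0.0445) and -0.05 without control 1 (adjusted p = 0.881), the library of highest Nkx2-5. The sign turned with log2 of TPM plus 1 (0.10, adjusted p = 0.674, limma) and with counts scaled from TPM (0.06, adjusted p = 0.846, edgeR).

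The MEF2 genes moved little. Mef2a (ENSMUSG00000030557.17, chr7:67231163-67372858, minus strand), whose product is a major MEF2 protein of heart muscle, was called lower in the right ventricle. Levels there were 208.3, 218.7, 208.7 and 210.0 CPM in the cKO and 220.1, 240.6, 242.8 and 225.8 CPM in controls, which do not overlap. It fell by 9.0% (log2 fold change -0.14, SE 0.04, adjusted p = 0.0256). Left ventricle levels of Mef2a were 217.8, 232.0, 232.9 and 225.5 CPM in the cKO and 237.5, 240.0, 249.3 and 248.4 CPM in controls. These groups did not overlap either, and the log2 fold change of -0.10 (SE 0.04) had an adjusted p of 0.0512. The whole heart value was 0.02 (95% interval -0.19 to 0.23), or -0.05 without control 1 (adjusted p = 0.810). The right ventricle call was lost without right ventricle cKO 1, 3 or 4 or control 3 (adjusted p 0.0626 to 0.0885) and on log2 of TPM plus 1 (-0.16, adjusted p = 0.136, limma). It was also lost with no filter on low counts (adjusted p = 0.0809) and with the 8 right ventricle libraries fitted alone (adjusted p = 0.0985). The left ventricle value passed without left ventricle control 1 or right ventricle control 1, 2 or 3, each left out alone (adjusted p 0.0356 to 0.0479), and with 7 other alternatives (adjusted p 0.0204 to 0.0497, the lowest by DESeq2).

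Mef2c (ENSMUSG00000005583.16, chr13:83504034-83667080, plus strand), the MEF2 gene needed for early heart morphogenesis, did not pass the test. Its log2 fold change was 0.18 in the whole heart (adjusted p = 0.321), 0.11 in the left ventricle (adjusted p = 0.102) and 0.11 in the right ventricle (adjusted p = 0.141), and its groups overlapped in CPM in all 3. The whole heart value was 0.11 without control 1 (adjusted p = 0.434), and the right ventricle value 0.08 without control 2 (adjusted p = 0.263). Mef2d (ENSMUSG00000001419.17, chr3:88142372-88172086, plus strand), a broadly expressed MEF2 gene, had log2 fold changes of -0.14 in the left (adjusted p = 0.153) and 0.06 in the right ventricle (adjusted p = 0.673; -0.0055 and 0.972 without control 2), and of -0.17 in whole hearts (SE 0.04, adjusted p = 0.0876). Whole heart levels of Mef2d were 166.3, 165.1 and 174.6 CPM in the cKO against 188.7, 192.1 and 186.7 CPM in controls, which do not overlap.

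Counting members without overlap in CPM between cKO and control gave 3 in the whole heart (Gata5, Mef2d and Myocd), 4 in the left ventricle (Gata5, Gata6, Mef2a and Myocd) and 3 in the right ventricle (Gata5, Mef2a and Myocd). Over all genes tested 26.7%, 29.0% and 12.7% did not overlap in CPM. In TPM, Mef2d in the whole heart, Gata6 and Mef2a in the left ventricle and Gata5 in the right ventricle did overlap. The other way round, Srf in the whole heart and Gata6 and Nkx2-5 in the right ventricle overlapped in CPM but not in TPM.

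Srf (ENSMUSG00000015605.6, chr17:46548329-46556175, minus strand), whose product drives cytoskeletal and sarcomere genes through CArG boxes, had log2 fold changes of 0.01 in the left ventricle (95% interval -0.17 to 0.18) and 0.02 in the right (-0.16 to 0.19). Neither passed the test. Whole heart levels of Srf were 72.2, 79.9 and 81.9 CPM in the cKO and 119.0, 81.6 and 105.1 CPM in controls. The groups overlapped in CPM by 1 pair, cKO 3 with control 2. In TPM the cKO libraries (44.3 to 51.2) were all below the controls (53.8 to 79.4). The TPM include the partial model Srf-202, whose mean share was 7.95% in these cKO libraries and 20.8% in these controls. The log2 fold change of -0.39 (SE 0.13) had an adjusted p of 0.170. Without control 2 it was -0.52 (adjusted p = 0.0204), and without control 1, the highest library, -0.26 (adjusted p = 0.204).

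Myocd (ENSMUSG00000020542.18, chr11:65176561-65269989, minus strand), the SRF coactivator, was lower in the left ventricle. It stood at 73.7, 80.4, 78.0 and 68.8 CPM in the cKO and at 98.8, 101.2, 95.4 and 86.2 CPM in controls, with all cKO libraries below all controls. It fell by 21.2% (log2 fold change -0.34, SE 0.06, adjusted p = 0.000235) and was called under all 28 alternatives. Right ventricle levels of Myocd were 101.5, 95.2, 90.1 and 90.6 CPM in the cKO and 102.7, 107.0, 107.6 and 109.5 CPM in controls, again without overlap, though cKO 1 was near control 1. Here the log2 fold change was -0.18 (SE 0.06) with an adjusted p of 0.0518, and it passed under 10 of 28 alternatives. These were the refits without right ventricle cKO 1, left ventricle cKO 4 or left ventricle control 4 (adjusted p 0.0291 to 0.0396) and other processing settings (adjusted p 0.0174 by DESeq2 to 0.0495 by limma voom). On log2 of TPM plus 1 it did not pass (-0.16, adjusted p = 0.277, limma). Whole heart levels of Myocd were 91.8, 88.1 and 101.3 CPM in the cKO against 108.4, 122.6 and 127.7 CPM in controls. Those groups did not overlap, and the log2 fold change of -0.35 (SE 0.08) had an adjusted p of 0.0523, or -0.42 and 0.00983 without control 1.

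Beside the lower Gata6 and Myocd, cardiomyocyte markers were called lower in the left ventricle (7 of 10, none higher, summed level 23910 to 24340 TPM in the cKO and 25580 to 27750 TPM in controls). In the right ventricle, where Gata6 and Mef2a were called lower, the markers had a median log2 fold change of -0.10 and overlapped in sum (29730 to 32160 against 28680 to 31980 TPM). In the whole heart 4 of 10 were called lower (20730 to 22160 against 22350 to 24310 TPM). Over all genes 13.4%, 4.19% and 2.07% were called lower in the left ventricle, right ventricle and whole heart. The shares called higher were 12.3%, 6.12% and 1.96%. Of 11 atrial cardiomyocyte markers, 8 were called higher in each of the 3 tissues. Erythroid markers were called higher in 5 of 10 cases in the right ventricle (32120 to 61350 against 13830 to 32910 TPM). In the left ventricle 1 was called higher (37270 to 93010 against 27570 to 52080 TPM), and in the whole heart 0. Their median log2 fold changes were 1.02 in the right ventricle, 0.71 in the left and 0.06 in the whole heart. Leaving haemoglobin genes out before scaling changed no member's call in any of the 6 comparisons. The part of these marker levels in the members' results was not tested.

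The difference in cKO effect between the left and right ventricle was tested as an interaction. No member was called by edgeR, and none had an unadjusted p under 0.05, while 1.43% of genes tested were called (0.462% higher and 0.973% lower in the left). DESeq2 and limma voom also called no member. Prdm16, which is not a member, was called by edgeR (-0.44, adjusted p = 0.0404), with the larger fall in the left ventricle. The interaction was 0.03 for Gata5 (95% interval -0.38 to 0.44; -0.19 without right ventricle control 2, adjusted p = 0.547), -0.17 for Myocd (-0.33 to 0.0019, adjusted p = 0.373) and -0.19 for Mef2d (-0.39 to 0.0056, adjusted p = 0.381). All 10 intervals lay within 0.5 either way. For Myocd, called in the left and not in the right ventricle, a difference between the ventricles is therefore not shown.

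The ventricles were next compared with each other within each genotype. These comparisons use the same libraries as the cKO effects and are no separate support for them. The labels do not say whether left and right ventricles share hearts, and the libraries were tested as separate. In controls 3 of 10 members were called, Gata4, Srf and Myocd, all lower in the left ventricle, beside 21.0% of genes (9.02% higher, 12.0% lower). In the cKO 3 of 10 were called, Srf and Myocd lower and Mef2a higher in the left ventricle, beside 32.8% of genes (14.5% higher, 18.3% lower). With library totals in place of scaling factors, the calls over all genes moved from 1483 higher and 1979 lower to 2290 and 1294 in controls, and from 2387 and 3011 to 3931 and 2004 in the cKO, so small differences between ventricles depend on the scaling. Without overlap in CPM were Srf and Myocd in controls, and Nkx2-5 and Myocd in the cKO, beside 20.7% and 34.2% of genes.

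**Figure D3:**
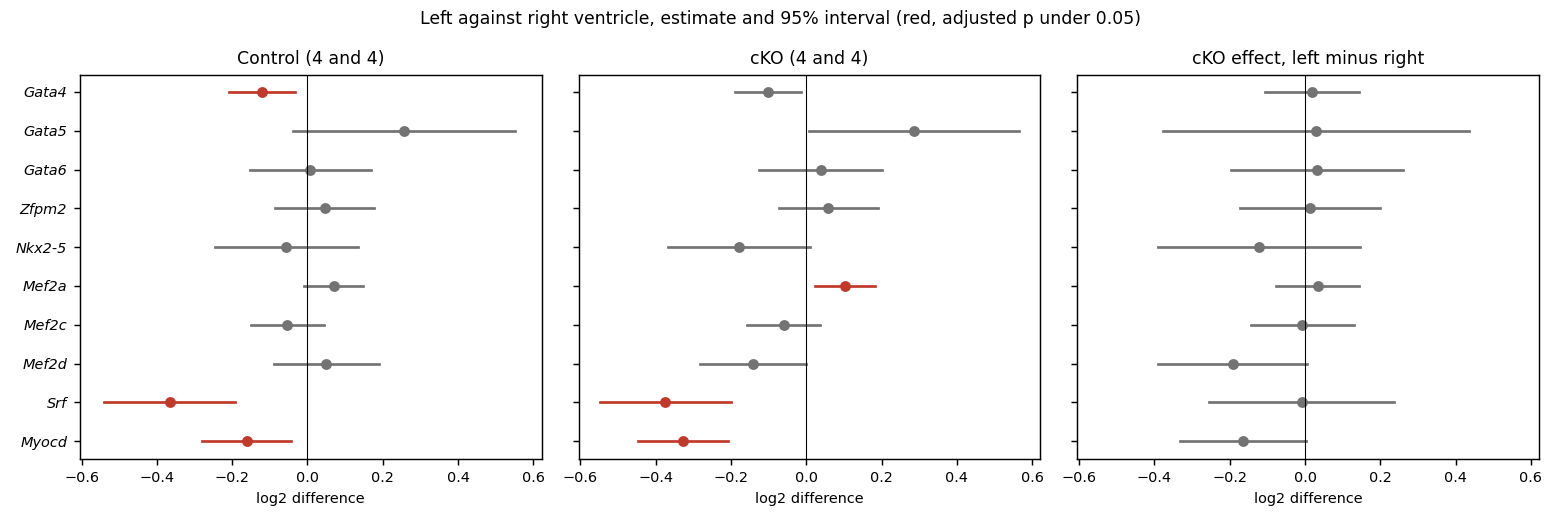
Log2 difference of left over right ventricle for each gene in controls and in cKO, and the difference of the cKO effect between the ventricles, with 95% intervals from edgeR's fit, red where the adjusted p is under 0.05. Srf lies at -0.37 in both genotypes, Myocd at -0.16 and -0.33, and no member is red in the panel of the difference.

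Srf had 82.3, 87.9, 100.4 and 84.3 CPM in left ventricle controls and 112.9, 112.4, 116.5 and 116.1 CPM in right ventricle controls. The left libraries were all below the right ones, and the log2 difference was -0.37 (SE 0.08, adjusted p = 0.00443). In the cKO it was also -0.37 (SE 0.08, adjusted p = 0.00227), where right ventricle cKO 1 (97.3 CPM) lay below left ventricle cKO 3 (100.3 CPM). Both calls held with each library left out in turn and were lost on log2 of TPM plus 1, where the values were -0.21 (adjusted p = 0.115) and -0.11 (adjusted p = 0.351) by limma, and with counts scaled from TPM, where they were -0.27 (adjusted p = 0.0695) and -0.24 (adjusted p = 0.0794) by edgeR. In TPM the left and right groups of Srf overlapped in both genotypes.

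Myocd was lower in left than in right ventricles, by 0.16 in controls (SE 0.06, adjusted p = 0.0477) and by 0.33 in the cKO (SE 0.06, adjusted p = 0.000307). In the cKO all left libraries (68.8 to 80.4 CPM) were below all right ones (90.1 to 101.5 CPM), and the call held under all 27 alternatives. In controls the call was lost with library totals (-0.11, adjusted p = 0.176, edgeR) and with counts scaled from TPM (-0.15, adjusted p = 0.136, edgeR). On log2 of TPM plus 1 it was lost too (-0.09, adjusted p = 0.497, limma). The main value in controls rested near the threshold: 11 of the 16 refits that leave out 1 library lost the call (adjusted p 0.0510 to 0.159). The call was kept without left ventricle control 1 or 2, left ventricle cKO 2 or 4, or right ventricle cKO 1. Gata4, with a log2 difference of -0.12 in controls (SE 0.04, adjusted p = 0.0499), lost its call in 13 of 16 such refits, all but those without left ventricle control 3, right ventricle control 1 or right ventricle cKO 1 (adjusted p up to 0.156). Its value was -0.07 with library totals and -0.10 in the cKO (adjusted p = 0.0732).

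Mef2a was higher in the left ventricle of the cKO by 0.10 (SE 0.04, adjusted p = 0.0425), and this call was lost in 8 of 16 refits without 1 library (adjusted p 0.0514 to 0.114): left ventricle cKO 2, 3 or 4, left ventricle control 2 or 3, and right ventricle cKO 1, 3 or 4. For Gata5 the left over right value was 0.26 in controls (adjusted p = 0.214) and 0.29 in the cKO (adjusted p = 0.108). Without right ventricle control 2 these became 0.48 (adjusted p = 0.000976) and 0.29 (adjusted p = 0.00748), so that 5 members were called in the cKO comparison in place of 3, with Mef2d as the other gained (-0.14, adjusted p = 0.0449).

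Within a family, a member's share of the summed TPM does not depend on the scaling between libraries. Gata5 made 5.76%, 5.73%, 4.80% and 6.06% of the TPM of Gata4, Gata5 and Gata6 in left ventricle cKO libraries and 3.08%, 3.15%, 3.28% and 3.02% in controls. The groups did not overlap, with an exact two-sided permutation p of 0.0286, the smallest that 4 against 4 can give. In the right ventricle it made 4.16% ± 0.47 against 2.42% ± 0.64 (SD, n = 4 each, exact p = 0.0286), and in the whole heart 5.81% ± 0.70 against 3.66% ± 0.24 (SD, n = 3 each, exact p = 0.1, the smallest that 3 against 3 can give). Gata4 made 68.1% to 82.0% of the family in all 22 libraries. The short models Gata4-204 and Gata4-205 made 20.25% and 16.68% of Gata4 TPM on average, but 4.65% and 4.39% of its reads. The size of the shares in the GATA family is therefore less certain. Among the MEF2 genes, Mef2a made 37.9% ± 0.90 of the family in the right ventricle cKO and 41.3% ± 2.47 in controls (SD, n = 4 each, exact p = 0.0286). Of 18 such tests, 3 had an unadjusted p under 0.05 and none passed after Benjamini-Hochberg adjustment, where the smallest adjusted p was 0.171. With p-values that cannot go below 0.0286 in a ventricle or 0.1 in the whole heart, nearly all ventricle tests would have to reach that minimum for any to pass, so the lack of calls follows from the design.

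**Figure D4:**
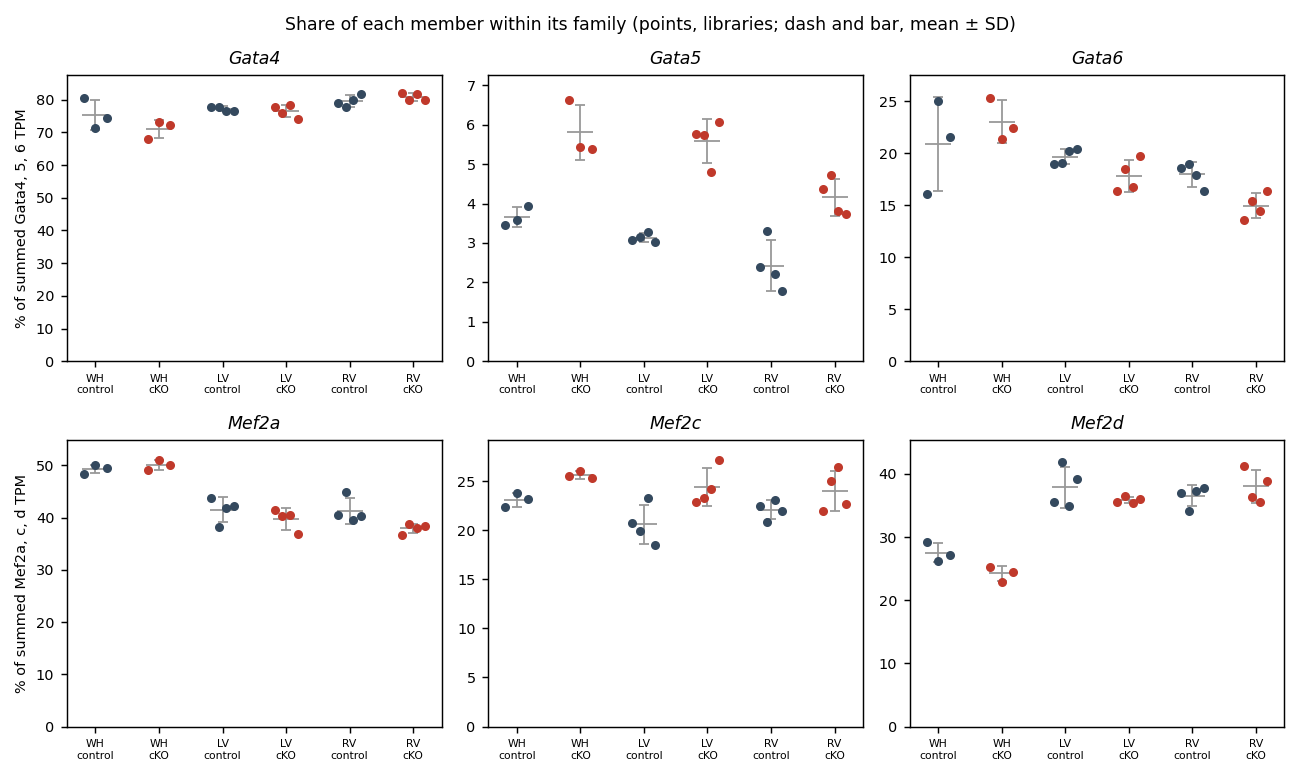
Share of each gene in the summed TPM of its family (Gata4, Gata5 and Gata6 above; Mef2a, Mef2c and Mef2d below) in every library (points), with the mean and SD of each group, control dark and cKO red. Gata5 has the smallest GATA share and is 5.59% in the left ventricle cKO against 3.13% in controls.

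Transcript shares are given as a description, since for the same reason their exact tests could hardly pass after adjustment. Of 54 tests on transcripts that made 10% or more of a member's TPM, 2 had an unadjusted exact p under 0.05 and the smallest adjusted p was 0.736. One was Srf-202, a partial model with 1.03% of Srf reads on average, which made 17.6% ± 3.62 of Srf TPM in the left ventricle cKO and 6.67% ± 5.34 in controls (SD, n = 4 each). Its mean share was lower in the cKO in the right ventricle (7.72% against 9.65%) and whole heart (7.95% against 20.8%). The other was Nkx2-5-201, the main transcript of Nkx2-5, at 88.9% ± 1.75 in the right ventricle cKO and 94.4% ± 1.61 in controls (SD, n = 4 each). Mef2c has several annotated starts. Transcripts that start near position 83572348 of chromosome 13 made 54.0% of its TPM on average over all libraries, those near 83504034 made 24.2% and those near 83523473 made 17.5%. In the left ventricle the first of these stood at 53.4% ± 6.93 in the cKO and 55.2% ± 2.46 in controls (SD, n = 4 each). For single transcripts the split was unstable: Mef2c-202 ran from 0 to 32.3% among libraries.

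For members called in any ventricle comparison, the protein-coding gene of most similar pattern was found among 11067 candidates by the root mean square difference of centred log2 CPM over the 16 ventricle libraries. For Gata5 it was Adamts7 (0.13, where Gata5 itself varied with an SD of 0.43), for Myocd Knl1 (0.07, SD 0.20), for Gata6 Cyth3 (0.07, SD 0.17) and for Srf Tgfb1i1 (0.09, SD 0.22). For Gata4 it was Efr3a (0.05, SD 0.08) and for Mef2a Limd1 (0.05, SD 0.08). The libraries share their genotype and chamber, so this is a description.

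Known partners and regulators of these factors were listed by name. The counts for this and the next lists stand beside 12.3% of all genes higher and 13.4% lower in the left ventricle, 6.12% and 4.19% in the right, and 1.96% and 2.07% in the whole heart. Of 20 such genes, 19 were tested in the ventricles, of which 3 rose and 3 fell in the left and 4 rose in the right, and in the whole heart 1 of 20 rose and 2 fell. The medians of -0.0068, 0.07 and 0.0020 stood beside all-gene medians of -0.0008, -0.0054 and 0.01. Tbx5, a T-box factor that cooperates with GATA4 and NKX2-5, rose in all 3 tissues, by 0.72 in the left ventricle (48.0 ± 0.78 against 28.3 ± 1.49 TPM, SD, n = 4 each, adjusted p = 0.000175), by 0.89 in the right (16.3 ± 3.90 against 8.38 ± 1.66 TPM, SD, n = 4 each, adjusted p = 0.000135) and by 0.68 in the whole heart (adjusted p = 0.00116). Of the class II histone deacetylases that repress MEF2, Hdac7 rose by 0.35 in the left ventricle (adjusted p = 1.77e-05), while Hdac5 fell by 0.21 there (adjusted p = 0.000374) and by 0.24 in the whole heart (adjusted p = 0.0417).

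Among 7 SRF cofactors, 2 rose and 2 fell in the left ventricle, 2 rose in the right and 2 fell in the whole heart (medians 0.08, 0.11 and 0.04, beside -0.0008, -0.0054 and 0.01 over all genes), where 25.6%, 10.3% and 4.03% of all genes were called. The myocardin-related coactivators Mrtfa and Mrtfb, which respond to actin, rose in both ventricles: Mrtfb by 0.22 (adjusted p = 0.000304) and 0.13 (adjusted p = 0.0364), and Mrtfa by 0.22 (adjusted p = 0.0197) and 0.21 (adjusted p = 0.0476) in the left and right. Fhl2, a LIM protein that binds SRF, fell by 0.59 in the left ventricle (87.2 ± 6.10 against 127.6 ± 10.9 TPM, SD, n = 4 each, adjusted p = 2.1e-05). Of 8 family relatives outside the members, 4 were expressed enough to be tested, and 1 was called, Gata2 in the left ventricle, which is best known from blood and endothelial cells (0.23, adjusted p = 0.0479).

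Listed targets did not move in 1 direction. Of 19 SRF and myocardin targets, 5 rose and 2 fell in the left ventricle, 3 rose and 1 fell in the right, and 1 rose and 1 fell in the whole heart, with medians of 0.11, 0.04 and -0.02. Over all genes 25.6%, 10.3% and 4.03% were called. In the left ventricle Mylk, myosin light chain kinase, rose by 0.60 (7.68 ± 1.96 against 6.26 ± 2.41 TPM, SD, n = 4 each, adjusted p = 2.36e-05). Its mean TPM differed by less than the SD of either group. Cald1, caldesmon, rose there by 0.36 (adjusted p = 0.000137). Acta2, smooth muscle actin, which the embryonic myocardium also expresses, fell there by 0.65 (303.5 ± 11.1 against 473.3 ± 32.2 TPM, SD, n = 4 each, adjusted p = 0.000184). Des, desmin, rose by 0.36 in the right ventricle (adjusted p = 0.000645) and by 0.22 in the whole heart (adjusted p = 0.0396). Of 34 cardiac targets of GATA4, NKX2-5 and MEF2, 7 rose and 17 fell in the left ventricle, 5 rose and 2 fell in the right, and 5 rose and 10 fell in the whole heart, with medians of -0.17, -0.07 and -0.14. All genes were called higher and lower at 12.3% and 13.4% in the left, 6.12% and 4.19% in the right ventricle. The cardiomyocyte markers, 7 of 10 lower in the left ventricle, moved with these targets, and 7 of the 10 markers are themselves on the target list. Their part in the result was not tested. Ckm, muscle creatine kinase, fell by 2.22 (21.8 ± 2.12 against 96.2 ± 15.5 TPM, SD, n = 4 each, adjusted p = 3.64e-09) and Mb, myoglobin, by 1.61 (adjusted p = 1.86e-06) in the left ventricle, where Ankrd1, a stress-responsive sarcomere protein, rose by 1.33 (adjusted p = 2.45e-06). In the right ventricle Ckm fell by 0.92 (adjusted p = 2.95e-05). Myl7, the atrial myosin light chain, rose by 0.88 there (adjusted p = 3.5e-05) and by 0.66 in the whole heart (adjusted p = 0.000684).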

How the data were processed

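The 22 libraries were made with a kit for stranded mRNA, per the labels' protocols. The deposited files hold estimated counts and TPM for 140658 transcripts, which the authors made with Salmon 1.2.1. The submitters' processing notes name this tool and also DESeq2 1.22.2, GRCm38.p6 and mm10. Transcripts were matched to GENCODE M21 by identifier. The 521 unmatched ones held at most 0.204% of a library and were left out. The deposited estimated counts were added up over transcripts for 54356 genes, then rounded, and the deposited TPM were added up likewise. CPM are counts scaled by TMM factors.

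Tests used edgeR 4.0.16 in R 4.3.3 (quasi-likelihood, TMM, filterByExpr). P-values were adjusted by Benjamini-Hochberg over all genes tested, and called means an adjusted p under 0.05. Whole hearts (6 libraries) and ventricles (16 libraries, 4 group means) had a model each. Log2 fold changes are cKO over control, and left over right. The biological coefficient of variation was 0.184 and 0.0929. Shares were tested with exact permutation tests over libraries. The labels do not say if left and right ventricles share hearts, and the libraries were fitted as separate. In the cKO, all 4 same-numbered left and right libraries deviated together (correlations 0.104 to 0.283), a hint of pairing from the data alone. The test was also run on simulated data, drawn as independent libraries from edgeR's own fitted spread. Such data cannot show what pairing or shared hearts would do to the results. Alternatives were RLE factors, library totals, other filters, DESeq2 1.42.0, limma 3.58.1 (voom, and log2 of TPM plus 1 or 0.1), counts scaled from TPM, haemoglobin genes left out, a tissue fitted alone, a replicate block and leaving out each library. Sums of Mef2c transcripts by start were added after seeing the data.

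All 10 members are named in every comparison, with Prdm16 and up to 3 genes of smallest p from each list and tissue, some of which are not described. Genes of like pattern are named besides. The members and lists were chosen with earlier results of these data known. Promoter sequences are from RefSeq (GRCm38.p6).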

Additional observations from a re-analysis of the deposited data

Results flagged for a closer look

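Of 40 groups of 4 libraries (10 members, 4 ventricle groups) tested for a library far from the others, 1 was flagged, where chance flags about 1 in 20. It was Mef2a in right ventricle cKO 2, at 218.7 CPM where the other 3 libraries of the group had 208.3 to 210.0 CPM. The gap to the nearest library was 0.84 of the group's range. Without that library Mef2a remained called lower in the right ventricle.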

How the results depend on the processing

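Of 1540 member values under alternatives, 1414 kept their side of the threshold, 82 lost a call, 44 gained one and no called value reversed. Among the 1414 were 86 uncalled values that changed sign, the largest at 0.27 on the log2 scale. The count of members called in the whole heart, 1 by edgeR, was 2 with no filter, with at least 1 CPM and with limma voom, 4 with DESeq2, and 0 with counts scaled from TPM and with log2 of TPM plus 1 or plus 0.1. DESeq2 added Myocd, Mef2d and Srf, all lower. Leaving out 1 library gave 0 to 2 there (0 without any 1 of the cKO libraries or control 3, 2 without control 1 or control 2), 2 to 4 in the left ventricle, 1 to 4 in the right (1 without right ventricle cKO 3), 1 to 3 for left against right in controls and 2 to 5 in the cKO. For left against right in controls the 3 calls became 1 with no filter and 0 with counts scaled from TPM and both TPM settings. The interaction stayed at 0 called under every alternative run. The share tests did too, but their designs could hardly pass after adjustment.

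The series counts pairs of cKO and littermate control, which the main tests did not model. Replicate numbers are shared between groups, but no label says that they mark these pairs. Between cKO and control the correlation of same-numbered deviations was -0.187 to 0.065 in the whole heart, -0.034 to 0.22 in the left and -0.063 to 0.18 in the right ventricle. Between left and right ventricles it was -0.12 to 0.192 in controls and 0.104 to 0.283 in the cKO. Not every library correlated best with its own number. With the replicate block 0 members were called in the whole heart, where Gata5 was lost (0.53, adjusted p = 0.0567), and 5 in the right ventricle, where Nkx2-5 (0.25, adjusted p = 0.0430) and Myocd (-0.18, adjusted p = 0.0366) were gained. In the left ventricle Mef2a was gained (-0.10, adjusted p = 0.0271). The block changed no call of a member in the comparisons of left with right or in the interaction. The cause of these changes was not tested.

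Over all genes tested, log2 of TPM plus 1 called 64 higher and 18 lower in the whole heart, 1704 and 933 in the left ventricle, and 3007 and 933 for left against right in the cKO, where edgeR called 376 and 397, 2017 and 2199, and 2387 and 3011. Members had 12.8 CPM or more in every library, and the whole heart comparison rests on 3 libraries a group.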
